A study of Arabidopsis thaliana with 6 samples.

Results

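The 10 Aux/IAA genes described here are IAA1, IAA2, IAA3, IAA4, IAA6, IAA7, IAA14, IAA17, IAA19 and IAA29 of Arabidopsis thaliana, chosen by gene identifier from the 32833 genes of the deposited count table. All 10 were found. The family has 29 members, and the other 19 were also in the table and serve below for comparison. RNA was sequenced from whole seedlings of the wild-type accession Col-0 and of gi-2, a mutant of the clock and flowering gene GIGANTEA (GI), with 3 libraries of each genotype. Both groups grew for 7 d on 0.5x MS medium at 22 °C with 8 h of light and 16 h of darkness a day, and each library came from a pool of 40 to 60 seedlings frozen at ZT0 (lights-on). Only 1 mutant allele, 1 accession and 1 time of day were sampled, and each library averages organs and cell types, so fewer cells of a type and less RNA per cell cannot be told apart. The design text calls the replicates biological, without growth dates, and the tests below measure variation among these pools of plants.

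Aux/IAA proteins are short-lived nuclear repressors. They bind auxin response factors (ARFs) at auxin-responsive promoters and recruit TOPLESS corepressors there. Auxin acts as a glue between an Aux/IAA protein and the F-box receptors TIR1 and AFB, which marks the repressor for destruction and frees the ARF. Many Aux/IAA genes are themselves auxin-induced, which closes a negative feedback loop, and some are also direct targets of the phytochrome-interacting factors (PIFs) that drive hypocotyl elongation.

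Library totals ran from 18739317 to 23617717 counts. The floor used here, 3 counts, corresponded to 0.127 to 0.160 counts per 1e6 counts of the library, without TMM scaling. All levels below are in CPM (counts per 1e6 counts, scaled by TMM). GI itself averaged 8.02 ± 0.95 CPM in the mutant libraries, against 3.11 ± 0.576 CPM in the wild type (SD, n = 3). This counts transcript over the whole gene and says nothing of GI protein. Along the first principal component, with 56.6% of the variance, the genotypes separated. The second, with 17.5%, placed Col-0 replicate 1 far from its 2 fellow replicates. The green shoot marker list (5 genes) summed to 62975 to 70207 CPM in the gi-2 libraries and 63308 to 68140 CPM in the Col-0 libraries, with 4 of 5 lower in gi-2 and 1 higher. LHCB1.3, the 1 that rose, carried most of that sum (mutant 52161 CPM, wild type 41118 CPM), while RCA fell by 1.29 and RBCS1A by 0.55 on the log2 scale (edgeR adjusted p = 5.48e-08 and 0.000746). The root list (9 genes) summed to 2445 to 2624 CPM in the gi-2 libraries and 3702 to 4123 CPM in the Col-0 libraries, with 2 lower and 1 higher, and none of these green or root markers was at 0 in any library. Seed storage transcripts (9 genes) summed to 359 CPM in gi-2 replicate 2, against 21.9 and 61.1 CPM in the other gi-2 libraries and 1.16 to 10.6 CPM in Col-0. CRU2, CRU3, 4 SESA genes and OLEO1 of that list were at 0 in at least 1 library. Their part in the results below was not tested.

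Of the 10 Aux/IAA genes, 6 were higher and 1 was lower in gi-2 at an adjusted p under 0.05 (edgeR quasi-likelihood test, Benjamini-Hochberg adjustment over all genes). IAA19, IAA7, IAA2, IAA4, IAA1 and IAA29 rose by 1.29-fold to 2.16-fold, IAA14 fell to 0.734 of its Col-0 level, and IAA3, IAA6 and IAA17 did not pass. Over the 19699 genes tested, 16.3% were called higher and 16.2% lower, together 32.6%, and the same shares apply to the marker lists above. The median log2 fold change was 0.39 over the 10 genes and 0.00 over all genes. All 10 passed the low-count filter. The summed level of the 10 was 959, 890 and 961 CPM in replicates 1, 2 and 3 of gi-2 and 588, 657 and 700 CPM in Col-0 replicates 1, 2 and 3, so every gi-2 library lay above every Col-0 library. The abundant genes IAA7 (mean 387 CPM in gi-2, 220 in Col-0) and IAA2 (191 and 121 CPM) carried most of the rise in that sum.

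**Figure D1:**
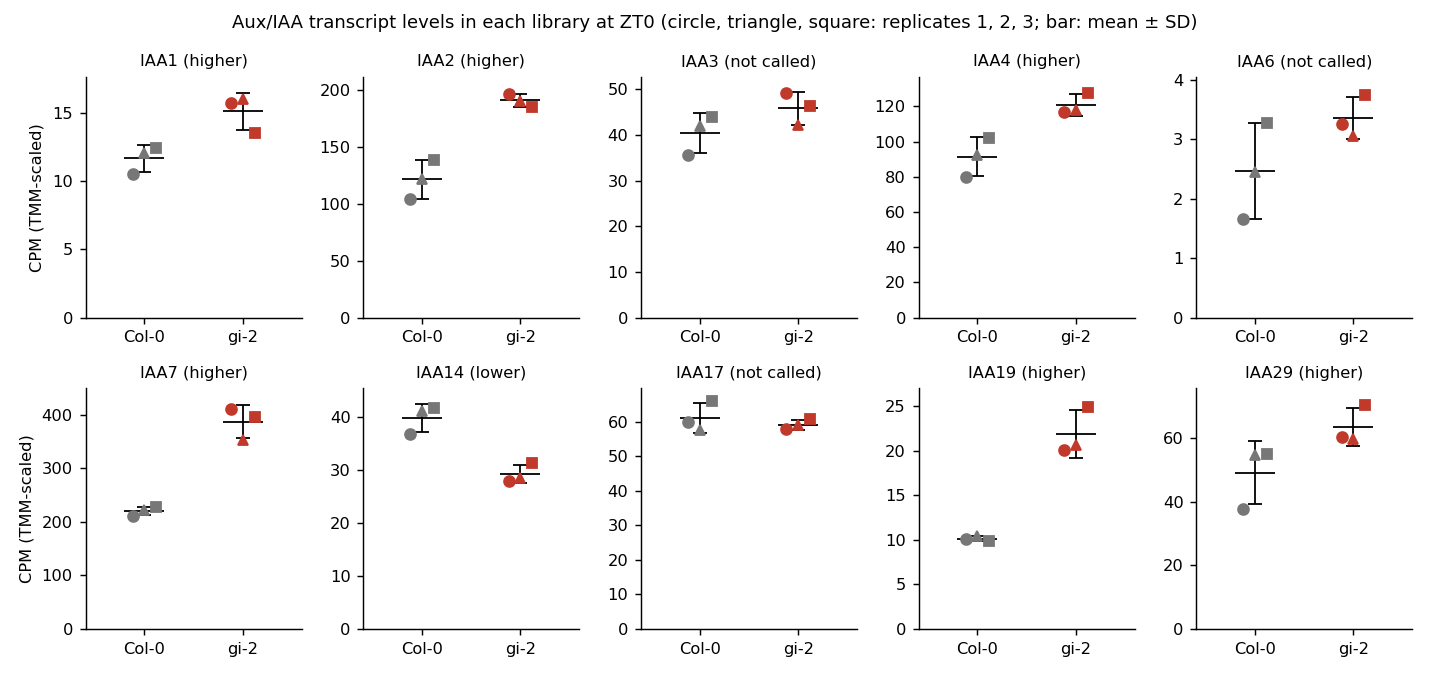
Level of each of the 10 Aux/IAA genes in each library, in CPM on axes that start at 0, with the mean ± SD of 3 libraries per genotype. IAA19 and IAA7 have the largest ratios between genotypes (2.16-fold and 1.76-fold), IAA14 is the gene with every gi-2 library below every Col-0 library, and Col-0 replicate 1 (grey circle) is the lowest Col-0 point for 8 of the 10 genes.

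IAA19 (AT3G15540, chr3:5264001-5265695, plus strand) had the largest fold rise of the 10. It is also known as MSG2, a repressor that restrains ARF7 in hypocotyl growth and tropic bending, and it is induced by auxin and by PIFs. The gi-2 libraries held 442, 494 and 499 counts in replicates 1, 2 and 3, or 20.05, 20.7 and 25.0 CPM. Col-0 libraries 1, 2 and 3 held 182, 213 and 196 counts, or 10.1, 10.46 and 9.91 CPM. The genotypes were far apart, the lowest gi-2 library being well above the highest Col-0 library. The log2 fold change was 1.11 (SE 0.13; edgeR adjusted p = 1.15e-05), a 2.16-fold rise with a 95% interval of 1.79 to 2.60.

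IAA6 (AT1G52830, chr1:19672476-19673652, minus strand; gain-of-function alleles are called shy1) is a close relative of IAA19 that also acts in the hypocotyl. It was the least abundant of the 10, with 72, 73 and 75 counts in gi-2 and 30, 50 and 65 in Col-0 in replicates 1, 2 and 3. That is 3.27, 3.06 and 3.75 CPM in the mutant and 1.66, 2.45 and 3.28 CPM in Col-0, so Col-0 replicate 3 lay inside the gi-2 range. Its log2 fold change was 0.44 with a 95% interval of -0.19 to 1.06 (edgeR adjusted p = 0.285). It was 0.22 without Col-0 replicate 1 and 0.70 without Col-0 replicate 3, not called in either case (adjusted p = 0.592 and 0.123). The difference between the responses of IAA6 and IAA19 was not tested.

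The 250 bases upstream of IAA19 and IAA6 are shown because they share the longest common stretch among all 45 pairs of the 10 genes, 23 bases in a row, where the other pairs share at most 13. Capitals mark matches on either strand to 4 motifs: TGTCTC, the auxin response element bound by ARFs; CACGTG, the G-box, and CATGTG, the PBE-box, both bound by PIFs; and AAAATATCT, the evening element. The bases run 5′ to 3′ toward the annotated gene start, on the strand of the gene, from the RefSeq TAIR10.1 genome.
IAA19 (chr3:5263751-5264000, plus strand): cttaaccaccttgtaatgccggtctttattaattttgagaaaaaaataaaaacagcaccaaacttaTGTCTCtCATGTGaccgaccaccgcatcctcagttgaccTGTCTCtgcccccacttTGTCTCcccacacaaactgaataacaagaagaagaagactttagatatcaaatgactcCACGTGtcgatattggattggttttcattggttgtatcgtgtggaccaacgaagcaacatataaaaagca
IAA6 (chr1:19673653-19673902, minus strand): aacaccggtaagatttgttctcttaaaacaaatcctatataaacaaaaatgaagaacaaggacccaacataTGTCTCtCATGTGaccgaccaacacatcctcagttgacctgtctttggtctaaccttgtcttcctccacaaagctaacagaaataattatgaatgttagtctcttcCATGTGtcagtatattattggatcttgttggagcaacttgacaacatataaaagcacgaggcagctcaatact
The shared run, tatgtctctcatgtgaccgacca, begins 186 bases before the start of IAA19 and 181 bases before that of IAA6, and holds 1 auxin response element followed by 1 PBE-box in both. IAA19 has 2 further auxin response elements and a G-box, and IAA6 has another PBE-box nearer its start.

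Among the 10 upstream windows, TGTCTC or its reverse complement occurred in 3 (IAA1, IAA6 and IAA19), CACGTG in 2 (IAA7 and IAA19) and CATGTG in 4 (IAA3, IAA4, IAA6 and IAA19). The evening element occurred in 0 of the 10. Over 32522 windows of the same length upstream of nuclear genes, the shares were 11.04% for TGTCTC, 5.90% for CACGTG, 11.2% for CATGTG and 2.23% for AAAATATCT. No matches in these 10 windows overlapped, except that 2 PBE-box matches upstream of IAA3, on opposite strands, share bases. IAA2, IAA14, IAA17 and IAA29 had no match in this window. A match is a description of the letters, not of binding, and upstream sequence beyond 250 bases was not searched.

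IAA29 (AT4G32280, chr4:15583332-15584903, plus strand) is strongly induced by shade and is a direct PIF target. It stood at 60.3, 59.9 and 70.4 CPM in replicates 1, 2 and 3 of gi-2 and at 37.7, 54.7 and 54.9 CPM in Col-0 replicates 1, 2 and 3. The genotypes did not overlap, but Col-0 replicate 1 was well below the other Col-0 libraries. The log2 fold change was 0.37 (SE 0.13; edgeR adjusted p = 0.0360). Without Col-0 replicate 1 it was 0.20 (edgeR adjusted p = 0.0773), and the call was also lost without gi-2 replicate 1 (0.40, adjusted p = 0.0606), gi-2 replicate 2 (0.41, adjusted p = 0.0505) or gi-2 replicate 3 (0.28, adjusted p = 0.169). Over all alternatives the adjusted p of IAA29 ran from 0.0108 to 0.169.

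IAA7 (AT3G23050, chr3:8194606-8197161, plus strand) is the AXR2 gene, whose stabilizing mutations abolish gravitropism and root hair growth. It was the most abundant of the 10 and had the second largest fold rise. Replicates 1, 2 and 3 of gi-2 held 9075, 8419 and 7937 counts (412, 352 and 397 CPM), and those of Col-0 held 3817, 4529 and 4506 counts (211, 222 and 228 CPM). Every gi-2 library lay far above the highest Col-0 library. The log2 fold change was 0.81 (SE 0.08; edgeR adjusted p = 2.64e-06), a 1.76-fold rise with a 95% interval of 1.56 to 1.97.

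IAA2 (AT3G23030, chr3:8180646-8182095, minus strand), an early auxin-induced gene whose promoter is a common auxin reporter, stood at 196, 190 and 185 CPM in replicates 1, 2 and 3 of gi-2. In Col-0 it stood at 104, 122 and 138 CPM. The gi-2 libraries lay close together and the Col-0 libraries were more spread, without overlap. Its log2 fold change was 0.65 (SE 0.09; edgeR adjusted p = 9.46e-05), a 1.57-fold rise.

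IAA4 (AT5G43700, chr5:17550179-17551715, plus strand), also called AtAUX2-11, is another early auxin-induced repressor. Its level was 117, 118 and 128 CPM in replicates 1, 2 and 3 of gi-2 and 80.1, 92.5 and 102 CPM in Col-0 replicates 1, 2 and 3. The groups did not overlap. The log2 fold change was 0.40 (SE 0.09; edgeR adjusted p = 0.00309), a 1.32-fold rise.

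IAA14 (AT4G14550, chr4:8347822-8350263, minus strand) was the 1 gene of the 10 that fell. It is SOLITARY-ROOT, which holds ARF7 and ARF19 in check during lateral root initiation. Levels were 28.0, 28.5 and 31.3 CPM in replicates 1, 2 and 3 of gi-2 and 36.8, 41.1 and 41.7 CPM in Col-0 replicates 1, 2 and 3. The highest gi-2 library was below the lowest Col-0 library. The log2 fold change was -0.45 (SE 0.09; edgeR adjusted p = 0.00204), and it kept its call under all 13 alternatives, between -0.51 and -0.41. The lateral root regulator was measured in whole seedlings whose root marker sum was also lower in gi-2, from 2445 to 2624 CPM against 3702 to 4123 CPM. PYK10 carried most of that sum (mutant 2249 ± 73.5 CPM, wild type 3705 ± 240.1 CPM), and the root hair marker COBL9 was the other one that fell (-0.69, SE 0.22; edgeR adjusted p = 0.0242). The endodermal marker CASP1 rose (0.56, SE 0.09; edgeR adjusted p = 0.000274), and SHR, SCR, WER, RHD6, EXPA7 and PHO1 did not pass, with log2 values from -0.59 for EXPA7 to 0.56 for RHD6. The part of root tissue in the value of IAA14 was not tested.

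IAA1 (AT4G14560, chr4:8360996-8362033, plus strand), the AXR5 gene and an early auxin-induced repressor, stood at 15.7, 16.0 and 13.5 CPM in replicates 1, 2 and 3 of gi-2 and 10.52, 12.0 and 12.4 CPM in Col-0 replicates 1, 2 and 3. The groups did not overlap, though gi-2 replicate 3 came close to the Col-0 libraries. Its log2 fold change was 0.37 (SE 0.13; edgeR adjusted p = 0.0436), a call at the threshold. It was lost without gi-2 replicate 1 (adjusted p = 0.141), gi-2 replicate 2 (0.158), Col-0 replicate 1 (0.104), Col-0 replicate 2 (0.0912) and without Col-0 replicate 3 (0.0524). It was also lost with DESeq2 (adjusted p = 0.0698), with no low-count filter (0.0511) and with gi-2 replicate 2 and Col-0 replicate 1 both left out (0.228). Its adjusted p ran from 0.0414 to 0.228 over the 13 alternatives, of which 9 lost the call.

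IAA3 and IAA17 did not pass. IAA3 (AT1G04240, chr1:1128149-1129689, minus strand) is SHY2, which sets root meristem size where cytokinin and auxin meet, and it stood at 49.2, 42.1 and 46.3 CPM in replicates 1, 2 and 3 of gi-2 and 35.5, 41.9 and 43.8 CPM in Col-0 replicates 1, 2 and 3. Its groups overlapped, and its log2 fold change was 0.18 with a 95% interval of -0.03 to 0.39 (edgeR adjusted p = 0.187). It was 0.09 without Col-0 replicate 1 (adjusted p = 0.483), and without gi-2 replicate 1 it was 0.12 (adjusted p = 0.482). Reads of IAA3 are uncertain, since AT1G04230 on the plus strand overlaps it by 640 bases, 47.2% of its length, and the libraries carry no strand. IAA17 (AT1G04250, chr1:1136078-1138663, plus strand) is AXR3, whose stabilizing mutations alter root hairs and gravitropism. Its levels were 57.9, 59.0 and 60.7 CPM in replicates 1, 2 and 3 of gi-2 and 60.0, 57.6 and 66.0 CPM in Col-0 replicates 1, 2 and 3, and its log2 fold change was -0.05 with a 95% interval of -0.22 to 0.12 (edgeR adjusted p = 0.694).

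Apart from IAA3, no annotated gene overlapped any of the 10. Although the 10 are paralogs, no stretch of 50 bases of the longest RefSeq transcript of any of them occurred anywhere else in the genome, on either strand.

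The 10 genes spanned a wide range of levels per length. Per kilobase of gene length in Col-0, IAA7 stood at 116 ± 4.35 CPM, IAA2 at 89.4 ± 12.6 and IAA4 at 67.5 ± 8.04, followed by IAA17 at 46.5 ± 3.25, IAA29 at 38.3 ± 7.70 and IAA3 at 29.8 ± 3.21 CPM (SD, n = 3). IAA14 stood at 21.1 ± 1.40, IAA1 at 12.3 ± 1.06, IAA19 at 10.05 ± 0.278 and IAA6 at 2.88 ± 0.947 CPM per kilobase. Neighbours in this order did not overlap in their Col-0 libraries, except IAA29 and IAA3. In gi-2 IAA19, at 21.7 ± 2.65 CPM per kilobase, stood above IAA1 (16.0 ± 1.46) and IAA14 (15.5 ± 0.943), the reverse of Col-0. IAA29, at 49.5 ± 4.64, stood above IAA17 at 45.0 ± 1.08 CPM per kilobase, also the reverse of Col-0. These 2 genes were close in Col-0 replicate 2, at 42.7 for IAA29 and 43.8 for IAA17, while IAA29 was at 29.4 in Col-0 replicate 1. Neighbours in the gi-2 order did not overlap either, except IAA1 and IAA14. The most abundant member of the whole family in Col-0 was IAA16, outside the 10, at 157 ± 14.96 CPM per kilobase. With RefSeq transcript lengths its mean was still the highest. Its Col-0 libraries (142.5 to 172.4) then overlapped those of IAA7 (137.0 to 147.6).

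**Figure D2:**
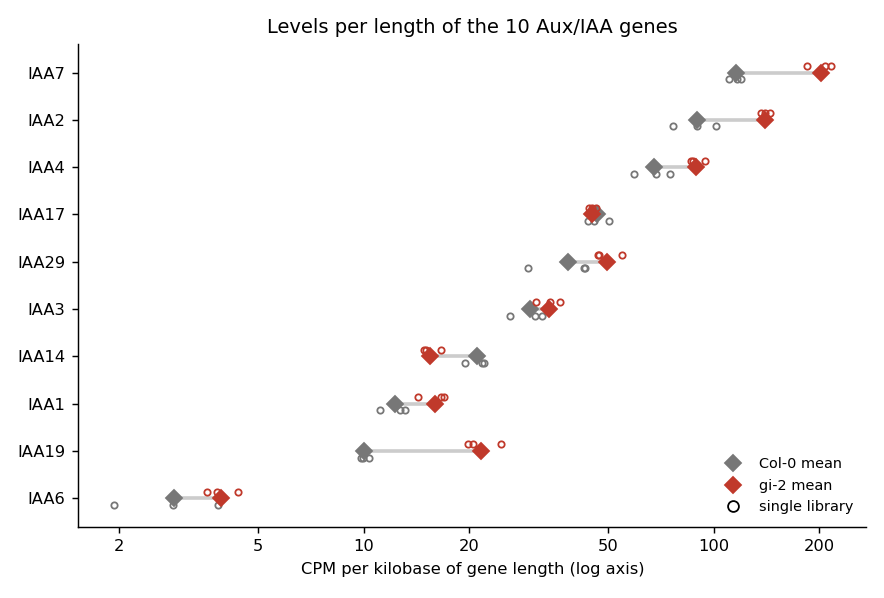
Level per kilobase of gene length of the 10 Aux/IAA genes, ordered by Col-0, in CPM per kilobase on a log axis; diamonds are means of 3 libraries and open circles single libraries. IAA7 leads in both genotypes, at 116 and 203, and IAA19 moves past IAA14 and IAA1 in gi-2.

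Of the 10 genes, 6 lie on the chromosomes as 3 pairs of neighbours transcribed away from each other. IAA14 and IAA1 are separated by 10.7 kb on chromosome 4, IAA2 and IAA7 by 12.5 kb on chromosome 3, and IAA3 and IAA17 by 6.39 kb on chromosome 1. Between the partners of each pair the RefSeq annotation holds 1 long non-coding RNA gene and no protein-coding gene. Neighbours were compared by the ratio of their counts within a library (1 added to each count), which needs no scaling between libraries.

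IAA1 and IAA14 were the 1 pair of the 3 whose ratio separated the genotypes with all libraries in. For IAA1 every gi-2 library lay above every Col-0 library, and for IAA14 below. The separation of their ratio follows from those 2 single-gene results and is no further result. The log2 ratio of IAA1 to IAA14 was -0.83, -0.83 and -1.21 in gi-2 replicates 1, 2 and 3 and -1.80, -1.77 and -1.74 in Col-0 replicates 1, 2 and 3. The Col-0 values were nearly the same, and all gi-2 values lay above them. The difference of means, gi-2 minus Col-0, was 0.81 on the log2 scale (exact two-sided permutation test, p = 0.1, the smallest that 3 against 3 allows; 0.2 after Benjamini-Hochberg adjustment over the 3 pairs). It stayed between 0.75 and 0.94 when any 1 library was left out. The adjusted p of the permutation test was 0.2 for each of the 3 pairs. With 3 libraries against 3 it could not fall under 0.05 for any pair. The test therefore cannot decide whether this pair differs from the others. Among single genes tested, 45.3% had libraries that did not overlap between the genotypes, in either direction. The share among ratios of other gene pairs was not tested.

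The upstream windows of this pair are shown because the partners differ in direction, although IAA1 kept its call in only 4 of the 13 alternatives. Capitals mark the same 4 motifs as above, with 1 auxin response element, on the opposite strand, upstream of IAA1 and no match upstream of IAA14. Of the genes with no match, IAA2 and IAA29 were called higher, IAA14 lower and IAA17 neither. A link between motifs and direction was not tested.
IAA1 (chr4:8360746-8360995, plus strand): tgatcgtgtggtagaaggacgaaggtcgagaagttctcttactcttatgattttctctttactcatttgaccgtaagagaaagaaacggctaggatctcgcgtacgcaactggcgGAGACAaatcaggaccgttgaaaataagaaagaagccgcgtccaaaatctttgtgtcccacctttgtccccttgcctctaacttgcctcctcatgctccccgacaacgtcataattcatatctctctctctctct
IAA14 (chr4:8350264-8350513, minus strand): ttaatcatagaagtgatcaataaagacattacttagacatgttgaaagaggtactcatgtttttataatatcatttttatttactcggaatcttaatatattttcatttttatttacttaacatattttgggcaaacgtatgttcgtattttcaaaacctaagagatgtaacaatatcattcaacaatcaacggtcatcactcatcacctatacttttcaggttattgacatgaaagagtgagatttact
The longest run of bases common to the upstream windows of other pairs than IAA6 and IAA19 had a median of 8 bases.

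The other pairs did not separate by genotype with all libraries in. The log2 ratio of IAA2 to IAA7 averaged -1.02 ± 0.114 in the mutant, against -0.87 ± 0.152 in the wild type (SD, n = 3 each), a difference of -0.15 (exact two-sided permutation test, p = 0.2, adjusted 0.2), and the libraries of the genotypes overlapped. Both genes of that pair rose. For IAA3 over IAA17 the ratio averaged -0.37 ± 0.128 in the mutant, against -0.60 ± 0.150 in the wild type, a difference of 0.23 (exact two-sided permutation test, p = 0.2, adjusted 0.2), also with overlap. The overlap of both pairs was lost without gi-2 replicate 2. It was also lost without Col-0 replicate 1 for IAA2 over IAA7 and without Col-0 replicate 2 for IAA3 over IAA17.

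**Figure D3:**
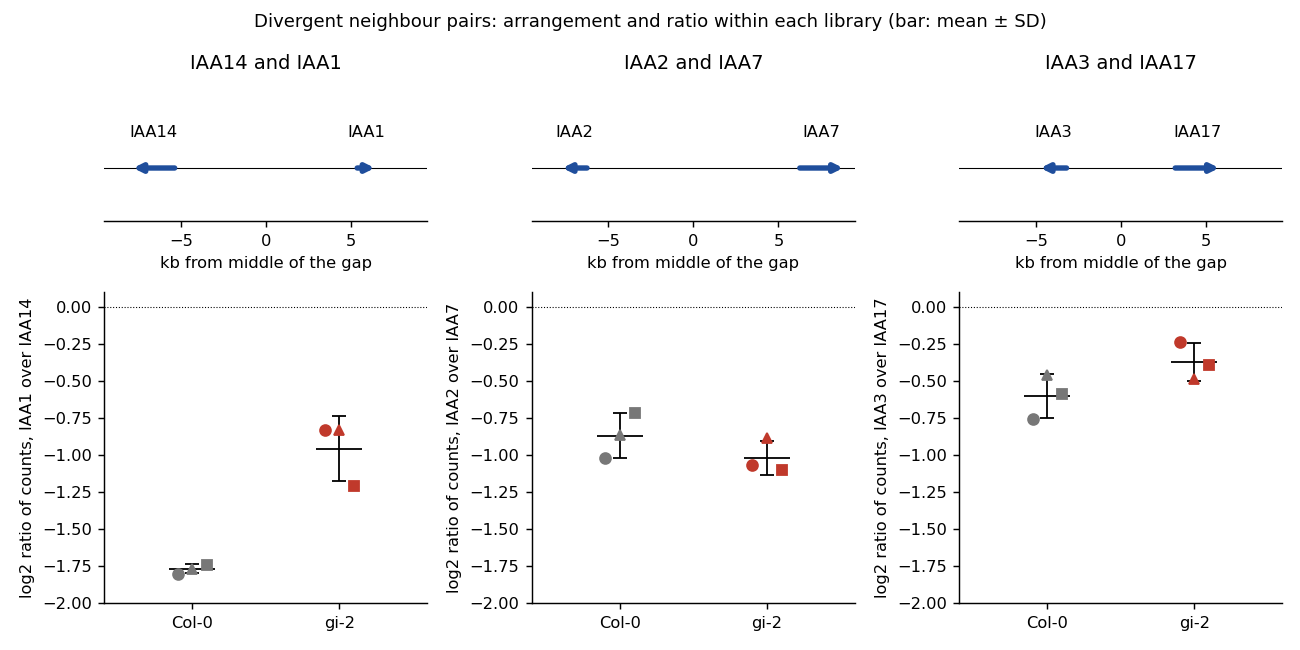
Top, the 3 pairs of Aux/IAA neighbours to scale, as distance in kb from the middle of the gap, with arrows in the direction of transcription; bottom, the log2 ratio of the partners' counts in each library (circle, triangle and square for replicates 1, 2 and 3) with the mean ± SD. The genotypes separate for IAA1 over IAA14 (-0.96 in gi-2 and -1.77 in Col-0) and overlap for the other pairs.

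Col-0 replicates 1 and 3 were the extremes for most of the 10 genes. Col-0 replicate 1 had the lowest Col-0 level for 8 of the 10 genes, the exceptions being IAA17 and IAA19, and for 40.3% of all genes tested. Col-0 replicate 3 had the highest Col-0 level for 9 of the 10, against 33.4% of all genes. No gi-2 library was lowest for more than 4 or highest for more than 6. Without Col-0 replicate 1 the median log2 fold change of the 10 was 0.26 and 4 were called higher, IAA2, IAA4, IAA7 and IAA19, while IAA14 remained lower. The number called higher was also 4 without gi-2 replicate 1 or without gi-2 replicate 2. For 6 of the 10 genes all gi-2 libraries lay above all Col-0 libraries, as for 22.9% of all genes tested, and for 1 they lay below, as for 22.4%.

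Of the 19 other Aux/IAA genes, 13 passed the low-count filter, and 3 of these were higher in gi-2 (16.3% of all genes). The repressor genes IAA13, IAA9 and IAA16 rose by 0.48 (SE 0.08; edgeR adjusted p = 0.000500), 0.31 (SE 0.07; adjusted p = 0.00298) and 0.29 (SE 0.08; adjusted p = 0.0125) on the log2 scale. IAA13 stood at 54.8 ± 2.99 CPM in the mutant and 39.3 ± 1.83 CPM in Col-0, IAA9 at 198 ± 1.91 and 159 ± 5.76 CPM, and IAA16 at 388 ± 7.92 and 317 ± 30.3 CPM. The call of IAA16 was lost without gi-2 replicate 1 (adjusted p = 0.0520), gi-2 replicate 3 (0.0501) and without Col-0 replicate 2 (0.0576), its alternatives spanning 0.00167 to 0.0576, and without any of the same 3 libraries 2 genes of the 13 were called higher. None was lower by edgeR at the adjusted threshold, nor by DESeq2 or limma-voom, and 2 were at an unadjusted p under 0.05, where 20.7% of all genes were lower and 20.9% higher: the log2 change was -0.33 for IAA12 (SE 0.12; edgeR adjusted p = 0.0509) and -0.19 for IAA8 (SE 0.07; adjusted p = 0.0665). Without Col-0 replicate 1 both passed (adjusted p = 0.00680 and 0.0229). The median of the 13 was 0.25. Counts of IAA9 and IAA13 are uncertain to the extent that each overlaps another annotated gene.

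The remaining 6 family members, IAA5, IAA15, IAA31, IAA32, IAA33 and IAA34, did not pass the low-count filter. IAA15 had 0 counts in every library, below the floor of 3 counts. IAA34 had 23, 9 and 16 counts in gi-2 and 3, 6 and 3 in Col-0. Levels per kilobase were also summed, with the deposited gene lengths only. The 10 genes made up 56.9% to 58.3% of the family sum in the gi-2 libraries and 49.9% to 53.3% in the Col-0 libraries. IAA7 alone held 31.3% to 34.3% of the sum of the 10 in the mutant libraries, against 25.4% to 28.4% in the wild type. The mean of IAA7 went from 116 to 203 CPM per kilobase and that of IAA2 from 89.4 to 140. These were the largest rises of the 10 in CPM per kilobase, while IAA19 had the largest fold change. IAA14 and IAA17 had lower means in the mutant. The share without IAA7 and IAA2 was not tested.

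**Figure D4:**
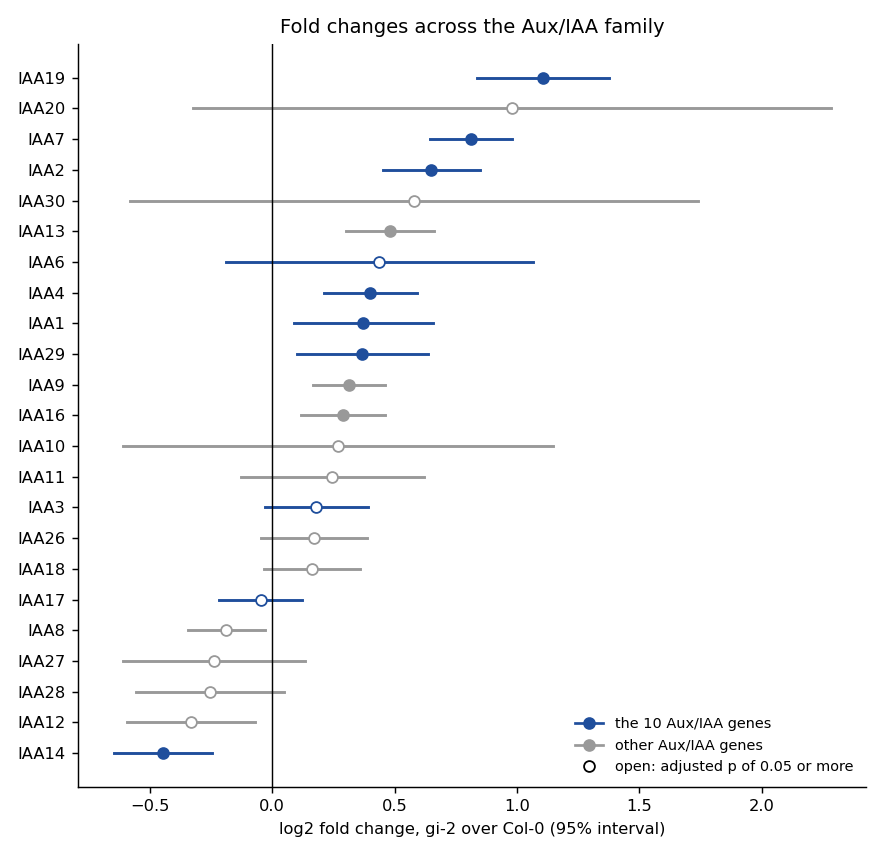
Log2 fold change of gi-2 over Col-0 for the 10 Aux/IAA genes (blue) and the 13 other family members tested (grey), with 95% intervals; filled circles passed the adjusted threshold. IAA19 stands highest at 1.11 and IAA14 lowest at -0.45, while the interval of IAA20 shows how little its few counts allow.

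Genes that act with Aux/IAA proteins were read from lists of pathway genes. The next list holds 11 genes of the auxin receptors, the SCF ubiquitin ligase that holds them and an enzyme acting upstream of that ligase. By edgeR, DESeq2 or limma-voom, 5 were higher (16.3% of all genes) and none lower (16.2%). At an unadjusted p under 0.05, 8 were higher and 0 lower, against 20.9% and 20.7% of all genes (median log2 fold change 0.20). RBX1, the RING subunit of the ligase, rose by 0.41 (SE 0.10; edgeR adjusted p = 0.00426). The receptors AFB5 and AFB3 rose by 0.31 (SE 0.07; adjusted p = 0.00519) and 0.33 (SE 0.09; adjusted p = 0.0107). The AFB3 call was lost without gi-2 replicate 2 (adjusted p = 0.0517) or without that library and Col-0 replicate 1 (0.0566), the lowest of its alternatives being 0.00866. The count fell to 3 without gi-2 replicate 1, gi-2 replicate 2, gi-2 replicate 3 or Col-0 replicate 2.

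Of 15 ARF genes, 5 were higher and 0 lower by edgeR, against 16.3% and 16.2% of all genes (4 and 0 by DESeq2 and by limma-voom). At an unadjusted p under 0.05, 6 were higher and 2 lower, against 20.9% and 20.7% of all genes (median 0.21). ARF6, an activator of hypocotyl elongation, rose by 0.61 (SE 0.08; edgeR adjusted p = 6.61e-05), from 43.6 ± 2.49 to 66.4 ± 4.03 CPM. ARF18 rose by 0.35 (SE 0.09; adjusted p = 0.00650), and ARF7, the partner of IAA19 and IAA14, by 0.29 (SE 0.08; adjusted p = 0.0157). The ARF7 call was lost without gi-2 replicate 1 (adjusted p = 0.0754) and without Col-0 replicate 3 (0.0617), its alternatives spanning 0.00866 to 0.0754. The count of higher ARF genes was 2 without gi-2 replicate 1 or Col-0 replicate 3 and 3 without gi-2 replicate 2, gi-2 replicate 3 or Col-0 replicate 2. Without Col-0 replicate 1, 1 was lower, and without Col-0 replicate 3, 2 were lower.

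Among the 5 TOPLESS corepressors, 1 was higher and 1 lower, close to the 16.3% and 16.2% of all genes. TPR1 rose by 0.39 (SE 0.09; edgeR adjusted p = 0.00582) and TPR4 fell by 0.22 (SE 0.08; adjusted p = 0.0396). The TPR4 call was lost without gi-2 replicate 1 (adjusted p = 0.0901), gi-2 replicate 2 (0.179), Col-0 replicate 2 (0.0987) and without Col-0 replicate 3 (0.0897), its alternatives spanning 0.0117 to 0.179, and also with gi-2 replicate 2 and Col-0 replicate 1 both left out (0.0581). TPL itself and the other members did not pass, and the median of the 5 was -0.10.

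Of 10 other early auxin targets, 6 were higher (16.3% of all genes) and none lower (16.2%) by edgeR, DESeq2 or limma-voom, with 7 higher (20.9%) and 0 lower (20.7%) at an unadjusted p under 0.05 (median 0.51). The count called higher fell to 5 without gi-2 replicate 1, gi-2 replicate 2, Col-0 replicate 2 or Col-0 replicate 3. It was also 5 with the filter at mean CPM 1, and it was 7 without Col-0 replicate 1. The GH3 genes encode enzymes that conjugate auxin to amino acids. GH3.3 rose by 1.01 (SE 0.15; edgeR adjusted p = 0.000104), from 17.2 ± 3.598 to 34.6 ± 4.88 CPM, GH3.5 by 0.60 (SE 0.08; adjusted p = 5.91e-05) and GH3.2 by 0.55 (SE 0.10; adjusted p = 0.000536).

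Of 9 auxin transport genes, 2 were higher and 2 lower, close to the 16.3% and 16.2% of all genes (median 0.07). The efflux carrier gene PIN7 rose by 0.63 (SE 0.07; edgeR adjusted p = 1.21e-05) and the influx carrier gene LAX1 by 0.60 (SE 0.07; adjusted p = 2.49e-05), while PIN3, an efflux carrier of hypocotyl tropisms, fell by 0.27 (SE 0.07; adjusted p = 0.00792). Of the 5 PIF genes, 3 were higher and 1 lower, against 16.3% and 16.2% of all genes (median 0.20). PIF4, a regulator of warm-temperature elongation, went from 83.4 ± 8.55 CPM in the wild type to 172 ± 11.9 CPM in the mutant. Its log2 rise was 1.04 (SE 0.09; edgeR adjusted p = 7.19e-07). PIF3 rose by 0.86 (SE 0.10; adjusted p = 1.21e-05) and PIF7 fell by 1.004 (SE 0.22; adjusted p = 0.00262). Without any 1 of the gi-2 libraries, Col-0 replicate 2 or Col-0 replicate 3, 2 PIF genes were called higher, and without Col-0 replicate 1, 2 were called lower.

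**Figure D5:**
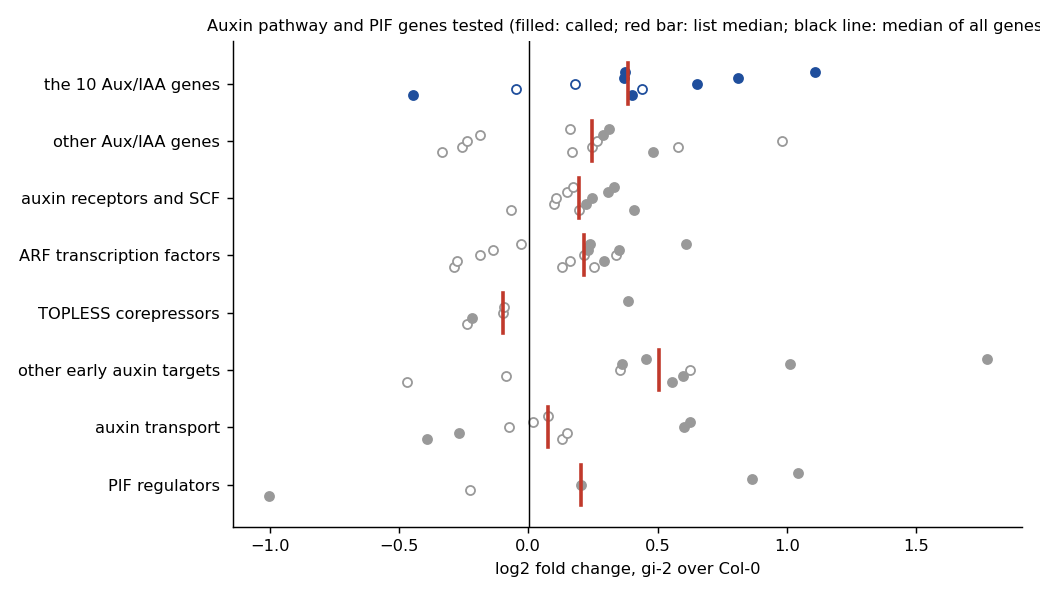
Log2 fold change of gi-2 over Col-0 for the genes tested in each auxin or PIF list; filled circles passed the adjusted threshold, the red bar is the list median and the black line the median of all genes. The medians of the 10 Aux/IAA genes (0.39) and of the other early auxin targets (0.51) lie to the right of those of the receptors (0.20) and ARFs (0.21).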

How the data were processed

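The deposited table holds whole-number read counts of 6 libraries, unscaled, and 1 gene length in bases per gene. TAIR10, DESeq2, HTSeq 0.6.1 and STAR 2.5.5 are named in the submitters' processing notes. How reads on several or overlapping genes were counted is not stated there, and per the labels' protocols the libraries were non-directional, with inserts of 250 to 300 bp. Of 32524 nuclear genes matched, 32508 had the same start and end in the RefSeq TAIR10.1 annotation, which supplied upstream sequence; protein sequences were not used here. In 24 rows annotation columns were shifted, with counts intact.

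Testing used edgeR 4.0.16 (R version 4.3.3): genes kept by filterByExpr (at least 10 counts in enough libraries, 15 in total) were scaled by TMM, and genotype was tested alone with quasi-likelihood F statistics, adjusted by Benjamini-Hochberg over 19699 genes. Standard errors are those implied by the F statistic, and the test was checked on simulated data. CPM are TMM-scaled, except for the floors, and values are mean ± SD over 3 libraries. Replicates of a genotype differed by more than sampling noise (chi-square per degree of freedom 4.96 to 15.6). Intervals are at 95%, and floors cover counting error only. Alternatives were DESeq2 1.42.0, limma-voom (limma 3.58.1), other filters and scaling, a replicate block and left-out libraries.

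The genes, lists and tests were chosen with earlier results of these data known. All 10 genes are named, as is every other Aux/IAA gene past the threshold; of each further list, up to 3 past the threshold with the smallest adjusted p. IAA8, IAA12, IAA20, IAA34 and the markers were named after their values were seen.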

Additional observations from a re-analysis of the deposited data

How the results depend on the processing

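Under 13 alternatives (DESeq2 size factors, no low-count filter, a filter at mean CPM 1, DESeq2, limma-voom, a replicate block, each library left out, and both gi-2 replicate 2 and Col-0 replicate 1 left out) IAA2, IAA4, IAA7, IAA14 and IAA19 kept their direction and call. With any 1 library left out, 4 to 5 of the 10 genes were called higher and 1 lower, the median log2 fold change was 0.26 to 0.47, and 4910 to 6687 genes were called in all. For the other Aux/IAA genes these ranges were 2 to 4 higher and 0 to 2 lower. The 4 include IAA34, which passed the low-count filter and the threshold without gi-2 replicate 2 (adjusted p = 0.0389; 0.0370 with Col-0 replicate 1 left out as well) but in no other alternative that tested it. The count lower was 1 with DESeq2 size factors, 1 with the filter at mean CPM 1, and 2 with gi-2 replicate 2 and Col-0 replicate 1 both left out. The mean CPM filter left IAA20 and IAA30 untested. With 1 library left out, IAA17 ran from -0.098 to 0.0080, reversing without Col-0 replicate 3, and IAA27 from -0.42 to 0.038, reversing without Col-0 replicate 1, neither past the threshold in any alternative; the cause was not tested. The ratio differences ran from 0.75 to 0.94 for IAA1 over IAA14, -0.23 to -0.07 for IAA2 over IAA7 and 0.15 to 0.30 for IAA3 over IAA17. With RefSeq transcript lengths all 10 ranks were the same in Col-0, while IAA14 (17.0 CPM per kilobase) passed IAA1 (16.0) in gi-2. With those lengths the Col-0 libraries of IAA29 (up to 43.88) and IAA17 (down to 43.76) overlapped. Replicate numbers shared by the genotypes showed no visible pairing of the libraries. Deviations of same-numbered libraries correlated at 0.00207, 0.0145 and 0.0156, and not every library correlated best with its own number. Such correlations cannot show whether same-numbered pools were grown or prepared together. With the replicate block 6161 genes were called against 6413 without it, and 5 of the 10 genes were higher and 1 lower, IAA1 losing its call (adjusted p = 0.0642), as did TPR4 (0.0520). The block also gave 2 PIF genes higher in place of 3, and 4 ARF genes higher and 1 lower in place of 5 and 0. IAA6 had the lowest counts of the 10 and the widest interval, and its Col-0 libraries also varied most (coefficient of variation 32.9%).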
